A study of Homo sapiens with 6 samples.

Results

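The NEAT1 and MALAT1 locus is a stretch of 120 kb on chromosome 11, from 65180000 to 65300000 in the coordinates of the deposited peak lists. It holds the genes of a pair of long noncoding RNAs, NEAT1 (65190269 to 65213009, 22741 bp) and MALAT1 (65265233 to 65273940, 8708 bp), both read from left to right, with 52223 bp between them. All peaks overlapping the stretch were taken, 114 of the 589440 peaks of the 6 lists. Merged wherever they shared at least 1 bp, these peaks made 30 of the 149765 regions of the series. The locus was chosen from the measured calls, because a region at 65260099 to 65260342 had a peak in each control list and in no chimera list. Every control against chimera value below is therefore a description, and no test was run.

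The lists come from ATAC-seq, which reads open chromatin through the insertions of a transposase, in the human lung carcinoma line H1155. The 3 control and 3 chimera libraries are labelled as biological replicates, prepared by the Omni-ATAC method. Genotype is labelled "control" or "chimera", and the titles call the chimera libraries TA. What the chimera consists of, how it was expressed, and whether either group was a single clone are not given in the labels. The labelled cell type was not checked against markers, since the lists hold peaks and no expression. In bulk libraries, a site open in fewer cells and a site less open in each cell cannot be told apart.

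NEAT1 RNA is the scaffold of paraspeckles, nuclear bodies that gather RNA-binding proteins such as NONO, SFPQ and PSPC1 and retain certain RNAs and proteins. It is made as a short and a long isoform from a common start, and the long isoform builds the bodies. MALAT1 RNA is retained in nuclear speckles, which are rich in splicing factors, and was first described as a transcript linked to metastasis in lung cancer. Both RNAs are abundant in many cell types and neither is translated into a known protein.

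The first sequence below is shown because a region with a peak in all 6 libraries lay across the MALAT1 start. That region ended 239 bp past the start. The second sequence surrounds a later annotated start, beyond the end of that region, where no library had a peak. Both are RefSeq promoter windows for MALAT1 on the plus strand of GRCh38.p14, from 250 bases before to 50 bases after an annotated start. The first lies at chr11:65497488-65497787, around the start that corresponds to the beginning of the gene above. The second lies at chr11:65498795-65499094, around a start 1307 bp further into the gene. Capitals mark matches to the motifs searched, on either strand, and no match overlapped another.
MALAT1 promoter 1: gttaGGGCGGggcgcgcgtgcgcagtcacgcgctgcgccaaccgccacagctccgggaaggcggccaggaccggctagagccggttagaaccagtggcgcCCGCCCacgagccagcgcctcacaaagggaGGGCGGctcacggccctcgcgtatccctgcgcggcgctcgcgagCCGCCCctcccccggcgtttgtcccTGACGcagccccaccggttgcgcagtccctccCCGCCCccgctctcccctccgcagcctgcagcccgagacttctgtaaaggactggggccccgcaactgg
MALAT1 promoter 2: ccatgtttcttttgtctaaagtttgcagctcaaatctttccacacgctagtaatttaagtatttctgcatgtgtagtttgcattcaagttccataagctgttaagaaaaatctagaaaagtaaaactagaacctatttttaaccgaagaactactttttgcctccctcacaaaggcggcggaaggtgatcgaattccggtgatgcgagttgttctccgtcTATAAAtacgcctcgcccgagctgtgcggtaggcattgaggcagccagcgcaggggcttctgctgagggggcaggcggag
The motifs were GGAATG (bound by TEAD factors), TGANTCA (AP-1), CACGTG (E-box), GGGCGG (GC box), CCAAT (bound by NF-Y), TATAAA (bound by TBP) and TGACG (CRE core). Promoter 1 has a GC content of 73.7%, above that of 87.7% of the 35116 promoters of the table. It holds 5 GC boxes, starting at -246, -150, -120, -76 and -19 from the annotated start, a motif found in 45.0% of all promoters. It also holds 1 CRE core at -51, found in 24.6%. Promoter 2 has a GC content of 46% and holds the TBP motif at -30, found in 11.5% of promoters. No letters of the TEAD motif (14.0% of promoters), the AP-1 motif (7.71%), the E-box (7.26%) or the NF-Y motif (34.6%) occur in either window. A match is a description of the sequence and was not tied to binding.

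The peak lists fitted the older hg19 build and not GRCh38, which the submitters' processing notes name. Within 1000 kb of the locus, a summit shared by all libraries lay within 250 bp of 5 of 105 GRCh38.p14 gene starts at their own coordinates. After a shift by -232600 bp, the best of those tried up to 500 kb either way, this held for 45 of 105 starts. No shift over 2 kb away from that one exceeded 17. The NEAT1 start used here stands at -232529 bp and the MALAT1 start at -232505 bp from the table's. Positions below are those of the lists, and the promoter windows above were not moved onto them.

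Called peaks were dense over the locus in all 6 libraries, and most of them had their summit outside the transcribed genes. Each library had 0 to 3 summits inside NEAT1 and 0 or 1 inside MALAT1, against 7 to 11 between the genes. There were 19, 18 and 25 peaks in control replicates 1, 2 and 3, and 16, 20 and 16 in chimera replicates 1, 2 and 3. The means were 20.7 ± 3.79 and 17.3 ± 2.31 (SD, n = 3 each), and the groups overlapped. Peaks covered 9376, 8014 and 11046 bp in the control and 8860, 9188 and 9120 bp in the chimera libraries, 6.68% to 9.20% of the locus. Control 2 had the shortest and control 3 the longest cover, with all chimera libraries between them. The difference in mean cover, chimera minus control, was -423 bp and became 361 bp without control 3. These extremes of cover matched those of list length: control 2 had the fewest peaks of any list (85745) and control 3 the most (109339). The other 4 lists had 94500 to 101281 peaks. Peak counts in the locus matched only in part. Control 3 had the most, but the fewest, 16, were in chimera 1 and chimera 3, whose lists held 94500 and 99675 peaks. The genome-wide background recovered from the lists, a stand-in for depth, was 2.53, 2.94 and 3.05 reads of pileup in the control and 3.21, 2.74 and 3.77 in the chimera libraries. Whether these library differences had a part in the results below was not tested.

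The locus held more regions than most stretches of its length. Cut into windows of 120 kb, the genome had 22027 windows with at least 1 region. The 30 regions of the locus exceeded 99.8% of them (median 5), and its 11 regions with a peak in all 6 libraries exceeded 97.5% (median 2). The locus had been picked for its calls, so this too is a description.

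**Figure D1:**
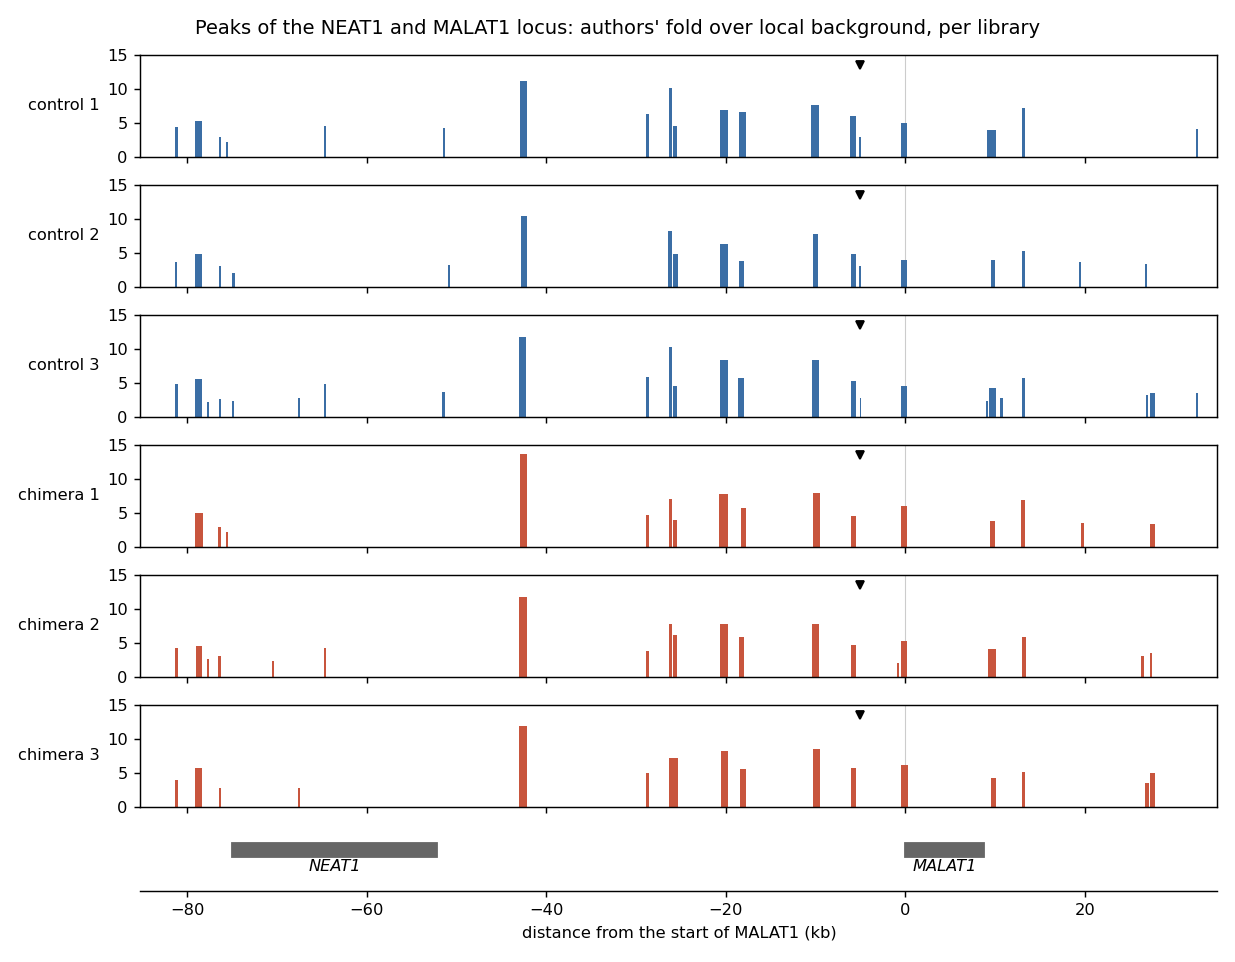
Each row is 1 library, the x axis is the distance from the MALAT1 start in kb, and each bar is 1 peak with its width to scale and its height the authors' fold over local background. The triangle marks the region with peaks in the 3 control libraries and in no chimera library; the tallest bars, with folds of 10.4 to 13.7, stand between NEAT1 and MALAT1 in all 6 libraries.

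Of the 30 regions, 11 had a peak in all 6 libraries, 2 in 5, 1 in 4, 3 in 3, 6 in 2 and 7 in 1 library. The share called in all 6 was 36.7%, near the 37.8% of all regions of the series. By position, 5 regions lay before NEAT1, 1 across its start, 3 inside it, 11 between the genes, 1 across the MALAT1 start and 9 after MALAT1. The regions of all 6 libraries were split differently: 2 lay before NEAT1, 6 between the genes, 1 across the MALAT1 start and 2 after MALAT1. None of those 11 lay within NEAT1. The fold of a peak is a value of the authors, in which MACS2 divides the pileup of reads at its summit by the background around it. In the regions of 1 library, the fold ran from 2.07 to 3.65 and the -log10 q from 3.53 to 7.45, with 3 in control and 4 in chimera libraries.

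**Figure D2:**
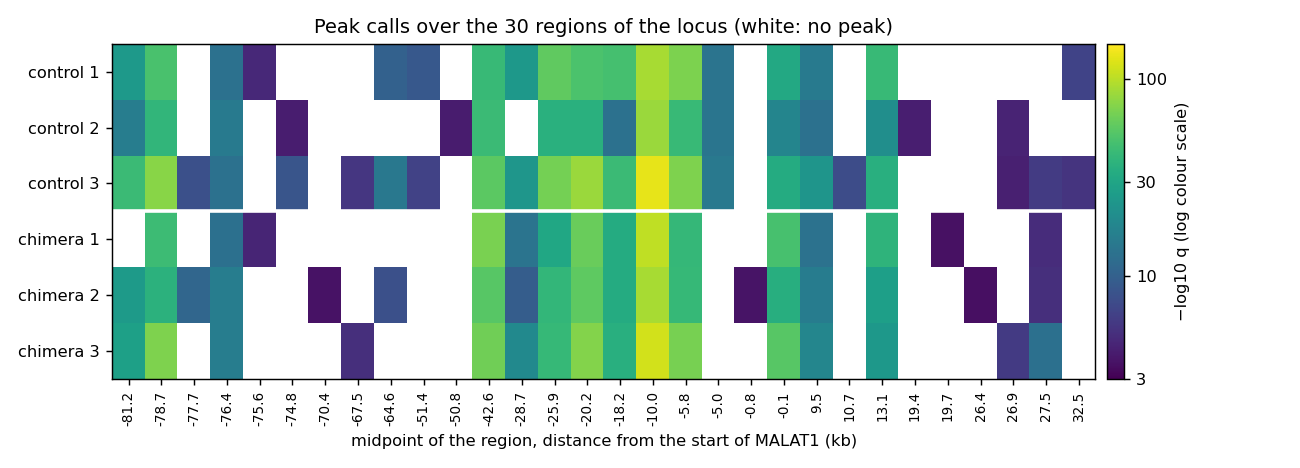
The grid shows the 30 regions from left to right by their midpoint's distance from the MALAT1 start (kb) and the 6 libraries from top to bottom, coloured by the authors' -log10 q on a log colour scale, with white for no peak. The brightest column, at -10.0 kb, has a -log10 q of 83.7 to 130 in all 6 libraries, and the column at -5.0 kb is filled in the 3 control libraries and white in the 3 chimera libraries.

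One region had a peak in all 3 control lists and in no chimera list, that used by the rule, and none had the reverse. Over all regions of the series these patterns made up 0.799% and 0.621%, and nothing is read from the count of 1, which the choice of the locus fixed. The region spans 244 bp, 65260099 to 65260342, between the genes, and ends 4891 bp before the MALAT1 start. Its fold was 2.89 in control 1, 3.05 in control 2 and 2.72 in control 3. Those folds were low for their lists, above only 2.91%, 5.31% and 2.56% of all peaks. Their -log10 q was 13.6, 13.8 and 14.6, in the middle of the lists: 46.3% to 54.6% of peaks had a lower -log10 p. At this site a summit pileup of 78, 73 and 92 reads stood on a local background of 26.4, 23.3 and 33.2.

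All 3 of these peaks were narrow, at 222, 235 and 200 bp, and 200 bp was the narrowest width in each of the 6 lists. No list held a shorter peak, and nothing is recorded at sites without a peak. To the left, at 65259117 to 65259759, a region had a peak in all 6 libraries, with folds of 5.96, 4.85 and 5.29 in the control and 4.44, 4.64 and 5.71 in the chimera libraries. Fold did not separate the groups at this neighbour. Its peaks ended 344, 339 and 339 bp short of the control-only region in the control libraries and 377, 420 and 420 bp short in the chimera libraries. The right edge thus reached further in each control library than in each chimera library. How often edges separate the groups over all shared regions was not counted, so nothing is read from this.

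The local background at the neighbour was 27.0, 24.6 and 34.6 in the control and 28.5, 26.4 and 28.4 in the chimera libraries, which overlap. At that background, the lowest -log10 p of each list corresponds to a summit pileup of 47, 42 and 55 in the control and 47, 45 and 48 in the chimera libraries. Relative to the genome-wide background of each library these are 18.6, 14.3 and 18.0 in the control and 14.7, 16.4 and 12.7 in the chimera libraries. The 3 control summits stood at 30.8, 24.8 and 30.2 on that scale. These control summits are called peaks, so they had to lie above the level a call needs. That level was not recovered, and the pileups from the lowest -log10 p are only a lower bound on it. In control 1, control 2, chimera 1 and chimera 2, the lowest fold in the locus was 2.07 to 2.12. Only 0.0210% to 0.0671% of the peaks of those lists had a lower fold. Whether a limit on fold applied as well was not tested. For the chimera libraries, no value is recorded where no peak was listed, so the size of the difference at this region was not measured. Whether pileup, fold or width kept the site off those lists is not known.

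The call depended on how peaks were joined. When peaks within 1 kb of each other were joined, the region became part of its left neighbour, which all 6 libraries share, and was no longer a control-only region. The count for the locus stayed at 1 because another stretch, 65213653 to 65214546, just after NEAT1, then met the rule. At that stretch, control 1 (fold 4.17) and control 3 (3.67) had a peak over 65213653 to 65214000, and control 2 (3.21) had one at 65214318 to 65214546. No peak of a chimera library lay there.

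**Figure D3:**
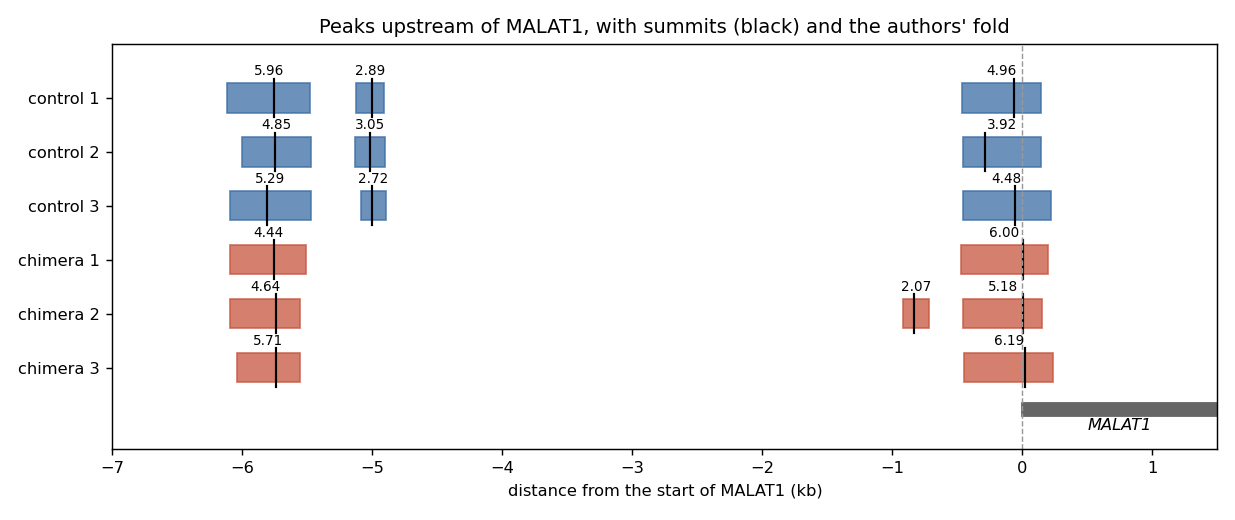
Peaks of each library (boxes, control in blue and chimera in red) from 7 kb before to 1.5 kb after the MALAT1 start, with the distance from the start in kb on the x axis, the summit as a black line and the authors' fold above each box. The narrow control boxes near -5 kb, with folds of 2.72 to 3.05, have no counterpart in the chimera libraries, and the summits at the gene start lie before it in control and at 2 to 21 bp past it in chimera libraries.

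MALAT1 was open at its start in all 6 libraries, and no other region lay inside its gene body. The region at 65264757 to 65265472 ends 239 bp past the start. Its fold was 4.96, 3.92 and 4.48 in the control and 6.0, 5.18 and 6.19 in the chimera libraries, with means of 4.45 ± 0.522 and 5.79 ± 0.539 (SD, n = 3 each). Every chimera value lay above every control value, by a mean ratio of 1.30. The scaled pileup, which is the summit pileup over the genome-wide background, was 35.1, 22.5 and 34.1 in the control and 35.5, 34.3 and 32.9 in the chimera libraries. On this scale the groups overlapped, with means of 30.6 ± 7.04 and 34.3 ± 1.32. The chimera mean was still the higher one, but the groups were separate only in fold. The local background at the summit was 6.77, 5.48 and 7.35 times the genome-wide one in the control and 5.66, 6.33 and 5.09 times in the chimera libraries.

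Where the MALAT1 peak was highest also differed. Relative to the gene start, the summits lay at -65, -287 and -54 bp in the control libraries and at 3, 2 and 21 bp in the chimera libraries. No control summit reached the start, and no chimera summit lay before it. Of all 56679 regions called in all libraries, 4.68% had every chimera summit at a higher coordinate than every control summit, and 4.56% had the opposite. In the locus these counts were 1 (the MALAT1 start) and 0 of 11. The widths were 604, 601 and 675 bp in the control and 677, 608 and 689 bp in the chimera libraries, which overlap. The comparison of summits was added after the positions had been seen, so nothing is read from it. In chimera 2 alone, a weak peak (fold 2.07) stood just before this region, at 65264316 to 65264515.

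Among the 11 shared regions, fold separated the groups at 3. Every chimera fold lay below every control fold at 1 region and above at 2, against 10.1% and 2.63% of all regions called in all libraries. The same contrast had been used to choose the locus, and nothing is read from these counts. With the summit pileup over the genome-wide background in place of fold, the counts were 0 and 0, against 11.1% and 1.42% over all such regions. All 11 regions therefore overlapped between groups on that scale.

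**Figure D4:**
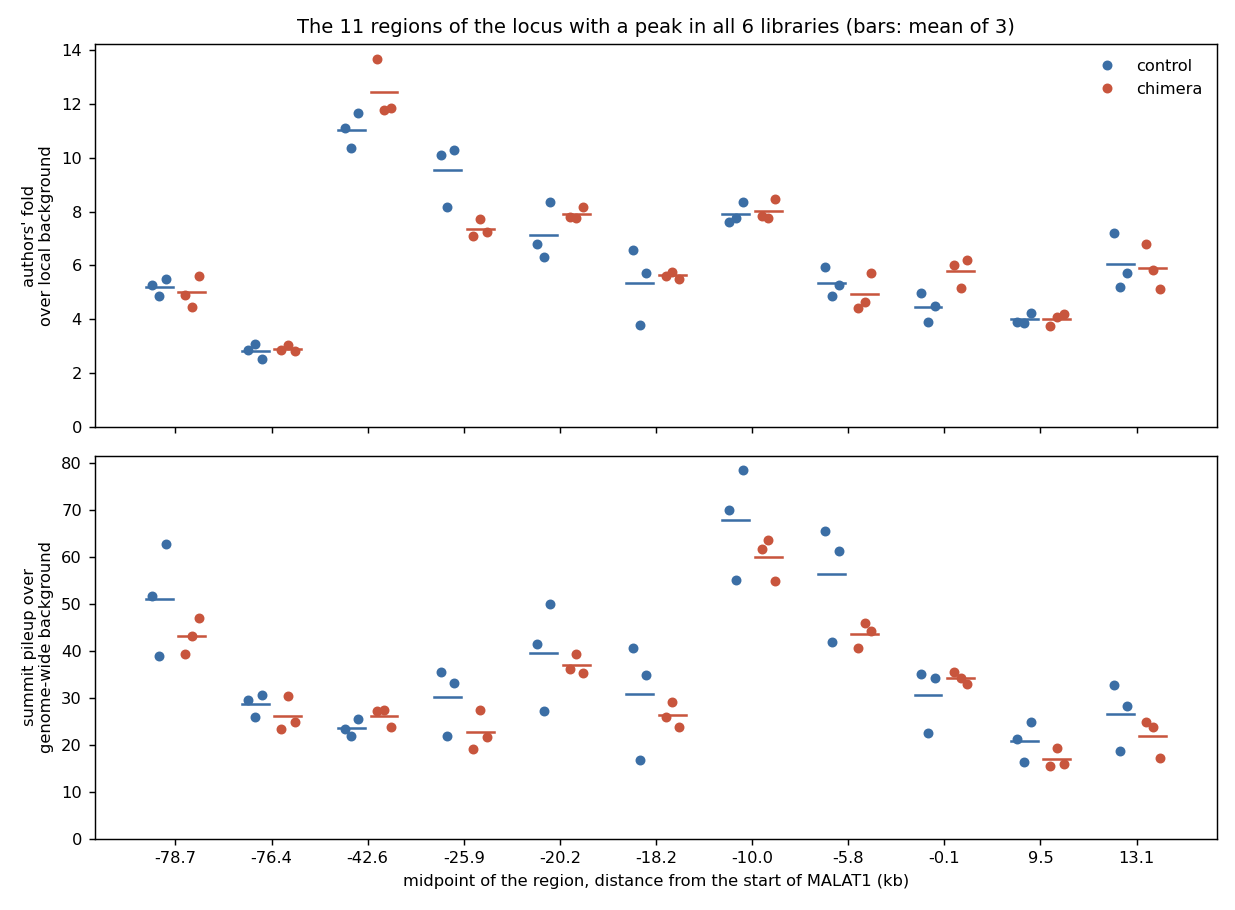
The 11 regions called in all 6 libraries, placed by their midpoint's distance from the MALAT1 start (kb), with 1 point per library (control blue, chimera red) and a bar at each mean of 3; the upper panel shows the authors' fold and the lower the summit pileup over the genome-wide background. Fold separates the groups at -42.6, -25.9 and -0.1 kb, and no region does so in the lower panel.

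The strongest fold of the locus belonged to a region between the genes at 65222161 to 65223103, 9152 bp past the end of NEAT1. Its fold was 11.1, 10.4 and 11.7 in the control and 13.7, 11.8 and 11.8 in the chimera libraries. The chimera values were all higher, with chimera 1 standing above the other two and the nearest pair at 11.7 and 11.8. The scaled pileup was 23.6 ± 1.91 and 26.1 ± 1.95 (SD, n = 3 each), with overlapping ranges. This site combined a high fold with a low local background, 1.7 to 1.99 times the genome-wide one, and its pileup was not the highest of the locus. The summits of all 6 libraries lay within 16 bp of each other.

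The region at 65238809 to 65239875, also between the genes, was the 1 with lower chimera folds. Its strongest peak had a fold of 10.1, 8.17 and 10.3 in the control and 7.08, 7.72 and 7.23 in the chimera libraries. The means were 9.53 ± 1.18 and 7.34 ± 0.338 (SD, n = 3 each), a ratio of 0.771, and no values overlapped. Scaled pileup was 30.1 ± 7.34 and 22.7 ± 4.26 and did overlap, since control 2 stood at 21.8 and chimera 2 at 27.4. The peaks here came in 2 pieces in each library except chimera 3, which had 1 peak of 1003 bp. The second piece had a fold of 4.51, 4.83 and 4.58 in the control libraries, 3.95 in chimera 1 and 6.11 in chimera 2, so it did not follow the first. With the widest piece standing for the region, the groups overlapped in fold too.

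Next to it, at 65236366 to 65236669, a region was called in 5 libraries. Control 1 had a fold of 6.24 and control 3 of 5.85, and chimera 1, 2 and 3 had folds of 4.69, 3.81 and 4.88. Both control values lay above all chimera values, and control 2 had no peak. The scaled pileup was 20.9 and 17.7 in control 1 and control 3, and 12.2, 12.8 and 14.3 in chimera 1, 2 and 3. This comparison lacks a value for control 2, and the region is not among the 11 shared ones. How many regions called in 5 libraries separate in this way was not counted, so nothing is read from it.

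The largest pileups of the locus lay between the genes, in the stretch towards MALAT1. The region at 65254760 to 65255746, which ends 9487 bp before the MALAT1 start, had the highest -log10 q of the locus, 83.7 to 130. Its fold was 7.63, 7.75 and 8.34 in the control and 7.83, 7.77 and 8.46 in the chimera libraries, nearly the same range. The scaled pileup was 67.8 ± 11.8 and 60.1 ± 4.53 (SD, n = 3 each), and its ranges overlapped. In each list, its -log10 p was above that of 96.0% to 97.9% of peaks.

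A pair of regions 1110 bp apart lay further to the left. At 65244518 to 65245524, the fold was 6.79, 6.32 and 8.34 in the control and 7.81, 7.76 and 8.16 in the chimera libraries. At 65246635 to 65247493, it was 6.59, 3.80 and 5.70 in the control and 5.61, 5.76 and 5.51 in the chimera libraries. Chimera values lay within the control range at both sites, and control 2 was the lowest of the 6 libraries at each. This spread among control libraries also appeared in the scaled pileup of the second site, where control 2 stood at 16.7 and control 1 at 40.7.

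Before NEAT1, a group of regions led up to the gene. The region at 65186112 to 65186987 had a fold of 5.28, 4.86 and 5.51 in the control and 4.91, 4.47 and 5.63 in the chimera libraries. The region at 65188700 to 65188999, which ends 1270 bp before the NEAT1 start, had folds of 2.87, 3.10 and 2.54 in the control and 2.86, 3.04 and 2.82 in the chimera libraries. Groups overlapped at both. The second is much like the control-only region in its values, with a -log10 q of 12.8 to 15.7 and a scaled pileup of 23.4 to 30.5, and it was listed in all 6 libraries. Further out, at 65183856 to 65184154, the fold was 4.31, 3.62 and 4.83 in the control libraries, 4.20 in chimera 2 and 3.98 in chimera 3. Chimera 1 had no peak there.

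The NEAT1 start itself was called in only 2 libraries. At 65190238 to 65190568, control 2 had a fold of 2.08 and control 3 of 2.24, with -log10 q of 4.09 and 8.37, and the other 4 libraries had no peak. Just before it, at 65189550 to 65189772, control 1 (fold 2.12) and chimera 1 (fold 2.09) had a peak. At 65187446 to 65187657, control 3 (2.18) and chimera 2 (2.66) had a peak. No library had a peak at all 3 of these places, control 3 had one at 2 of them, and chimera 3 at none.

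These weak folds stood on a high local background. Over the regions from 65187446 to 65190568, the local background was 7.73 to 11.8 times the genome-wide one. The scaled pileup at the NEAT1 start was 17.0 in control 2 and 25.9 in control 3. In control 3, the same measure was 25.6 at the region with the strongest fold of the locus, between the genes, where the fold was 11.7. Within that library, peaks of very different fold thus had nearly equal pileup.

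**Figure D5:**
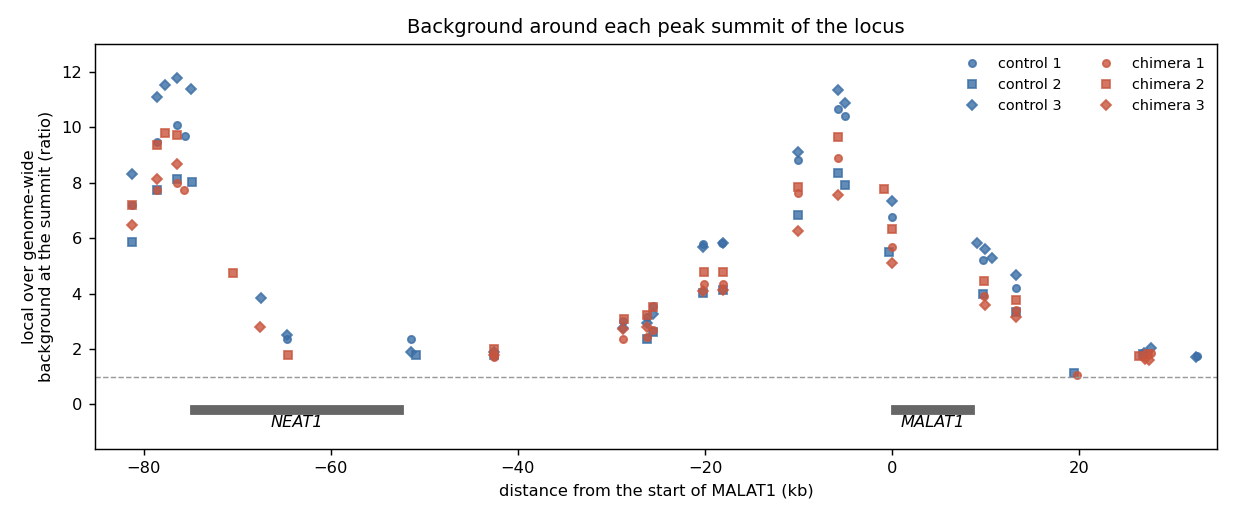
Local background at the summit of each of the 114 peaks, divided by the genome-wide background of its library, against the distance from the MALAT1 start (kb), with blue for control, red for chimera and a symbol for each replicate. It is highest near the NEAT1 start (up to 11.8) and about 6 kb before the MALAT1 start (up to 11.3), and close to the dashed line at 1 some 20 kb past that start.

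The local background was high at the same places in all 6 libraries, before NEAT1 and before MALAT1. Over the 11 shared regions its median was 5.83, 4.14 and 5.82 times the genome-wide background in the control and 4.36, 4.77 and 4.12 times in the chimera libraries. Over all shared regions of the series these medians were 2.23, 1.90 and 2.28 in the control and 1.94, 2.06 and 1.95 in the chimera libraries. Each library thus had a higher local background in the locus than at shared regions at large. The median fold of the shared regions was lower in the locus, at 4.86 to 6.59, than over all of them, at 6.31 to 8.22.

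Inside NEAT1, 3 regions were called and none in all libraries. At 65200479 to 65200701, control 1 (fold 4.45), control 3 (4.75) and chimera 2 (4.24) had a peak. At 65197587 to 65197818, control 3 (2.75) and chimera 3 (2.78) had one. The third, at 65194689 to 65194888, was found in chimera 2 alone, with a fold of 2.35. The local background here was lower than at the start, at 1.79 to 4.75 times the genome-wide one. No pattern of these calls followed the groups.

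After MALAT1, a broad region began 260 bp past the end of the gene. At 65274200 to 65275348, the fold of the strongest peak was 3.88, 3.86 and 4.25 in the control and 3.76, 4.09 and 4.21 in the chimera libraries. Its means of 4.0 ± 0.220 and 4.02 ± 0.237 (SD, n = 3 each) were the closest pair of group means among the 11 shared regions. The summits were spread over 261 bp, against 5 to 67 bp at 9 other shared regions and 308 bp at the MALAT1 start. Control 3 had a second, weaker peak in it, with a fold of 2.29, and a further peak alone at 65275768 to 65276054, with a fold of 2.75.

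At 65278092 to 65278620, the fold was 7.22, 5.19 and 5.72 in the control and 6.80, 5.82 and 5.14 in the chimera libraries, which overlap. In 5 of the 6 libraries the peak ended at the same base, 65278565, and in chimera 2 at 65278620. The summits lay within 26 bp. The left edge varied more, from 65278092 in chimera 1 to 65278270 in control 2.

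The far right of the locus held weak and scattered calls on a local background closer to that of the genome. At 65292486 to 65293079, control 3 had a fold of 3.46 and the chimera libraries had 3.29, 3.54 and 4.93. This was the region of the locus closest to the reverse pattern, with a peak in each chimera library and in 1 control library. It did not hold as chimera-only because of the peak of control 3, which had a -log10 q of 5.93. Beside it, at 65291983 to 65292359, control 2 (3.29), control 3 (3.13) and chimera 3 (3.45) had a peak. At 65297625 to 65297866, control 1 (4.04) and control 3 (3.53) had one, and no chimera library did. At these 3 regions the local background was 1.62 to 2.04 times the genome-wide one.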

How the data were processed

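Peak lists were deposited by the authors for 3 control and 3 chimera libraries of H1155, one per library, in the narrowPeak form of MACS2. The fold of each peak, a ratio of summit pileup to local background, the -log10 p and -log10 q, the score and the summit offset are the authors' deposited values. They were used to describe peaks within a list, and the score was not used. HOMER 4.9 and GRCh38 are named, without a role, per the submitters' processing notes. Which aligner, read filters, shift of reads for the transposase, and MACS2 version and settings were used is not given in the sources used here. These settings could change where a peak starts and which peaks are listed.

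Peaks on chromosomes 1 to 22 and X were kept, which left out 0.0168% of peaks, and those overlapping by 1 bp or more were joined. A region counted as called in a library with any overlapping peak, and the peak of highest fold stood for it. Summit pileup and local background were recovered from the fold and -log10 p under the Poisson model of MACS2 (pseudocount 1, tolerance 0.005 in -log10 p). This succeeded for 100% of peaks and was tested on simulated data. The lowest local background of a list served as its genome-wide background and stand-in for depth, which holds only if the settings were alike in all libraries. Total reads are unknown here, so no counting interval is given.

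Python 3.11.15, pandas 2.3.3, numpy 2.4.6, scipy 1.17.1 and matplotlib 3.10.9 were used. NEAT1 and MALAT1 were named by rule (the genes beside them are not reported here), regions in at least 2 libraries were described singly, and those in 1 library by count and range, with those near a described region named after their values were seen. Members, motifs and definitions were chosen with earlier results of these data known. Paraspeckle protein genes were not analysed here, for want of a gene table on the build of the lists. The labels do not say whether replicates came from separate cultures. Merging, cover, thresholds, list length and libraries were varied, with effects given in the closing section.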

Additional observations from a re-analysis of the deposited data

How the results depend on the processing

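The 11 regions of all 6 libraries numbered 10 to 12 in 11 alternatives. The control-only count of 1 was unchanged by 50% cover, -log10 q of at least 5 or 10, and lists of equal length, where it was the same region. With merging within 1 kb it was another. Leaving out 1 library gave 1 to 3 (2 without control 1, 3 without control 2). The region at 65260099 was control-only in each of these. The chimera-only count of 0 became 1 with lists of equal length (65292486 to 65293055), which drops the least significant peaks of longer lists, and was 0 to 1 without 1 library (1 without control 3).

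The count of lower chimera folds, 1, became 0 with the widest peak of a region and 0 with pileup over genome-wide background, and was 1 to 2 without 1 library (2 without control 2 or chimera 3). The count of higher chimera folds, 2, became 0 with that pileup and was 2 to 4 without 1 library (4 without control 3). Fewer libraries must separate when 1 is left out, and other causes were not tested. The difference in mean peaks, -3.33, ranged from -4.67 to -1.17 over its alternatives, and that in cover, -423 bp, from -1155 bp to 361 bp, the latter without control 3. No paired analysis was possible because no result comes from a test, and the labels do not say that a replicate number joins a control and a chimera library. A site under a list's threshold has no value, so a missing peak does not show closed chromatin.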
